A study of Danio rerio with 5 samples.

Results

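The genes described here act in the removal of peroxides and in the handling of selenium. They are the transcription factor gene nfe2l2a (Nrf2), its textbook target nqo1, the peroxiredoxin genes prdx1, prdx2 and prdx5, the glutathione peroxidase genes gpx1a and gpx4b, the selenoprotein P genes selenop and selenop2, and the catalase gene cat. They were found by their symbol in the platform's table of probe sets and genes. These 10 genes, of 8793 with a probe set of their own on the array, had 13 of the 15502 probe sets analysed. There were 3 probe sets for prdx1, 2 for nfe2l2a and 1 for each of the other genes.

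Nrf2 is kept scarce by the adaptor Keap1, which senses electrophiles and oxidants. When Keap1 is modified, Nrf2 accumulates, pairs with a small Maf protein and switches on genes for quinone reduction, glutathione synthesis and thioredoxin-dependent peroxide removal. Peroxiredoxins reduce hydrogen peroxide with electrons from thioredoxin, glutathione peroxidases use glutathione, and catalase splits hydrogen peroxide in the peroxisome without either. Several of these enzymes carry selenocysteine, and selenoprotein P is the plasma protein, made largely by the liver in mammals, that carries selenium to other tissues.

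Wild-type young adult zebrafish of the AB line were kept for 24 h without food, either in the vehicle DMSO or in benzene, toluene, formaldehyde or a mixture of these 3 compounds, the BTF mix, all prepared in DMSO. The labels enter the sex of every sample under 1 word that names neither males nor females, while doses, tissue and how many fish went into a sample are not stated in the sources used here. Total RNA of each of the 5 conditions was hybridised to 1 Affymetrix array. With 1 array per condition there is no replicate spread to set a difference against, no test is possible, and the precision of all values is limited by the number of arrays.

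Levels are the authors' log2 values, and differences are log2 levels of an exposed array minus the DMSO array, where 1 is a 2-fold difference. The array medians lay between 6.98 and 7.06. Correlations over probe sets ran from 0.979 to 0.992 among the DMSO, benzene, toluene and formaldehyde arrays, and from 0.692 to 0.739 between these and the BTF mix array, which stood apart. All 16 measured oocyte marker genes were at least 2-fold lower with the mix than with DMSO, by a median of 6.26 on the log2 scale, whereas none of them was 2-fold apart with a single compound. Their summed linear level was between 119544 and 132425 on the other 4 arrays and 2626 on the mix array. The oocyte gene zar1 had levels between 13.61 and 13.74 on those 4 arrays and 6.14 with the mix. Each gene was represented by its probe set with the highest mean level. Counts cover genes with a level of 7.02, the overall median, or more on some array, which held for all 10 genes here and for 6682 genes in all. Differences of probe sets for the same gene gave a measure of scatter, which does not cover variation between fish or arrays. Over 864 genes, these differences lay a median of 0.18 apart with both solvents, 0.19 with formaldehyde and 0.55 with the mix. The 90th percentile of these gaps was 0.50 with benzene, 0.49 with toluene, 0.52 with formaldehyde and 1.9 with the mix.

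**Figure D1:**
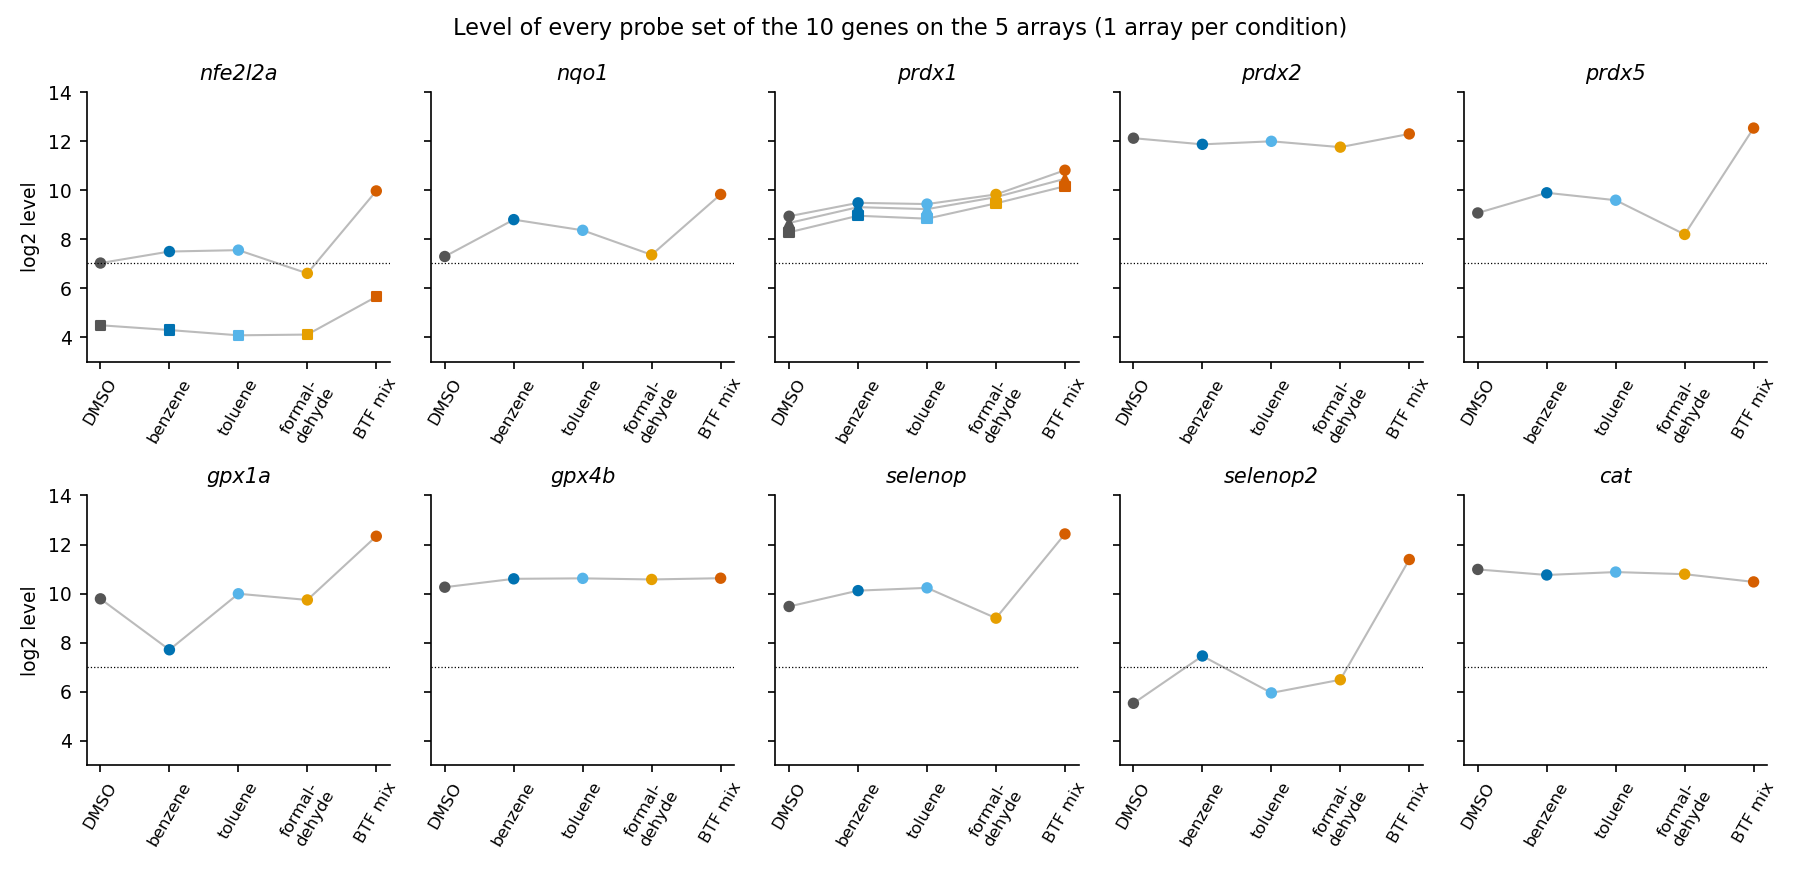
The log2 level (vertical axis) of each of the 13 probe sets on the 5 arrays (horizontal axis), 1 panel per gene; circles are the probe sets that represent a gene, squares and triangles its other probe sets, and the dotted line is the level filter at 7.02. The mix array is the highest for every gene except cat, by only 0.006 for gpx4b, and the benzene point of gpx1a, at 7.70, lies below the others of its gene.

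The regulator, on its representative probe set, and its classical target were both highest with the mix and higher with both solvents than with DMSO. The sizes of these differences were unlike. The level of nfe2l2a (Entrez gene 360149) was 7.02 with DMSO, 7.49 with benzene, 7.55 with toluene, 6.60 with formaldehyde and 9.96 with the BTF mix. The 4 arrays other than the mix thus lay within 0.95 of each other, with formaldehyde lowest, and the mix lay 2.42 above the highest of them. Against DMSO the differences were 0.47 with benzene, 0.53 with toluene, -0.42 with formaldehyde and 2.94 with the mix, the last a 7.69-fold difference. Its other probe set was dim, with 4.48 with DMSO, 4.29 with benzene, 4.07 with toluene, 4.10 with formaldehyde and 5.65 with the mix, and did not reach the level filter on any array. That probe set shared only the high mix value and the low formaldehyde difference with the first; its benzene and toluene differences, -0.20 and -0.41, had the opposite sign.

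The quinone reductase gene nqo1 (Entrez gene 322506), whose product reduces quinones without forming radicals, was higher with both aromatic solvents. Its level was 7.29 with DMSO, 8.79 with benzene, 8.36 with toluene, 7.36 with formaldehyde and 9.82 with the mix. The DMSO and formaldehyde arrays were alike and low, the benzene and toluene arrays lay between, and the mix was highest. Relative to DMSO, nqo1 was 2.84-fold higher with benzene, 2.1-fold with toluene, 1.05-fold with formaldehyde and 5.79-fold with the mix. Its benzene difference of 1.51 was the 47th highest of 6682 genes, and its toluene difference of 1.07 was the 124th highest. Set against the mean of the other 2 single-compound arrays in place of DMSO, nqo1 differed by 0.94 with benzene and 0.28 with toluene, both below 2-fold, and by -1.22 with formaldehyde. Each solvent's reference there includes the other solvent, itself above DMSO. The formaldehyde reference is both solvents, while formaldehyde lay 0.07 from DMSO.

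Among the peroxiredoxins, prdx1 was higher with every exposure on all 3 of its probe sets, prdx5 differed in both directions, and prdx2 varied little. The cytosolic enzyme gene prdx1 (Entrez gene 541344) had levels of 8.93 with DMSO, 9.48 with benzene, 9.43 with toluene, 9.82 with formaldehyde and 10.81 with the mix. Formaldehyde was therefore the highest of the 4 arrays other than the mix and DMSO the lowest, and the other 2 probe sets of the gene gave this same order. The formaldehyde difference was 0.89 on the representative probe set and 1.06 and 1.18 on the others, so 2 of 3 probe sets reached 2-fold and the representative one did not. The probe sets lay closer with benzene, at 0.55, 0.65 and 0.67, with toluene, at 0.50, 0.56 and 0.56, and with the mix, at 1.88, 1.80 and 1.88. Against the mean of the other 2 single-compound arrays, prdx1 differed by -0.15 with benzene and by -0.22 with toluene, and by 0.37 with formaldehyde. Each solvent's reference there includes formaldehyde, the highest of the 4 arrays other than the mix, so the sign for the solvents depends on the reference.

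For prdx2 (Entrez gene 791455), a second cytosolic peroxiredoxin that is abundant in mammalian red blood cells, the levels were 12.11 with DMSO, 11.86 with benzene, 11.99 with toluene, 11.75 with formaldehyde and 12.29 with the mix. All 5 arrays lay within 0.54, and 85.1% of the 6682 genes spanned at least as much over the 5 arrays.

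The gene prdx5 (Entrez gene 554105), whose product works in mitochondria, peroxisomes and the cytosol in mammals, had levels of 9.06 with DMSO, 9.89 with benzene, 9.58 with toluene, 8.19 with formaldehyde and 12.53 with the mix. Formaldehyde was lowest and the 2 solvents lay above DMSO, a span of 1.70 over the 4 arrays that 2.98% of genes equalled or exceeded. The differences from DMSO were 0.82, 0.52 and -0.88 in the order benzene, toluene, formaldehyde, none of them 2-fold, and 3.46 with the mix, an 11.0-fold difference. Against the mean of benzene and toluene, formaldehyde was at -1.55. Peroxiredoxins are similar to each other in sequence, as are glutathione peroxidases, and probes made for one member may pick up another.

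The glutathione peroxidase gene gpx1a was lower with benzene than on any other array. This gene (Entrez gene 352926) encodes the selenoenzyme that reduces hydrogen peroxide in the cytosol. Its level was 9.78 with DMSO, 7.70 with benzene, 9.99 with toluene, 9.74 with formaldehyde and 12.34 with the mix. The DMSO, toluene and formaldehyde arrays lay within 0.25 of each other, the benzene array lay 2.03 below the lowest of them, and the mix lay 2.35 above the highest. Relative to benzene, the DMSO level was 4.22-fold higher, and this difference of -2.08 was the 14th lowest of 6682 genes. Among these genes, 21 were at least 2-fold lower with benzene than on each of DMSO, toluene and formaldehyde, and gpx1a had the eighth largest such gap by rank (8 of 6682). Its paralogue gpx1b did not share the low value, with 9.23 with DMSO, 9.60 with benzene, 9.32 with toluene, 9.27 with formaldehyde and 10.01 with the mix. Only 1 probe set measures gpx1a, so no other probe set can be set beside this value.

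The phospholipid hydroperoxidase gene gpx4b (Entrez gene 352929), which in mammals protects membranes against lipid peroxidation, was almost level across the exposures. It measured 10.26 with DMSO, 10.60 with benzene, 10.62 with toluene, 10.57 with formaldehyde and 10.62 with the mix. DMSO was lowest and the 4 exposed arrays lay within a narrow band above it, by 0.34, 0.36, 0.32 and 0.37. Its span of 0.37 over the 5 arrays was equalled or exceeded by 92.4% of genes. The paralogue gpx4a, by contrast, differed from DMSO by 2.47 with the mix.

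The 2 selenoprotein P genes had different profiles. The gene selenop (Entrez gene 352931) encodes the form with the tail rich in selenocysteine, and its levels were 9.47 with DMSO, 10.12 with benzene, 10.23 with toluene, 8.99 with formaldehyde and 12.43 with the mix. The solvents lay above DMSO by 0.65 and 0.76, formaldehyde lay below it at -0.48, and the mix was 7.78-fold higher than DMSO. Against the mean of benzene and toluene, selenop was at -1.18 with formaldehyde.

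The gene selenop2 (Entrez gene 791479) encodes the form that lacks that tail. It had levels of 5.52 with DMSO, 7.45 with benzene, 5.94 with toluene, 6.48 with formaldehyde and 11.39 with the mix. Benzene was the highest of the 4 arrays other than the mix and the only one of them to reach the level filter, and DMSO was the lowest. Relative to DMSO, selenop2 was 3.81-fold higher with benzene, 1.34-fold with toluene, 1.95-fold with formaldehyde and 58.4-fold with the mix. The benzene difference of 1.93 was the 23rd highest of 6682 genes, and the mix difference of 5.87 was the second highest (2 of 6682). Levels of the DMSO, toluene and formaldehyde arrays lie in the dim range, where such arrays can understate folds. The gene passed the level filter only on the benzene and mix arrays, so its folds and ranks rest on a DMSO level below that filter.

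Catalase, encoded by cat (Entrez gene 30068), was the 1 gene that was not highest on the mix array. For gpx4b and prdx2 the mix was highest by only 0.006 and 0.17, less than the median gap of 0.55 between probe sets. The level of cat was 10.98 with DMSO, 10.76 with benzene, 10.88 with toluene, 10.79 with formaldehyde and 10.47 with the mix. DMSO was highest and the mix lowest, and the 5 arrays spanned 0.51.

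Taken by exposure, the number of these genes at least 2-fold apart from DMSO was largest with benzene among the single compounds. With benzene 3 of the 10 genes were at least 2-fold apart from DMSO, nqo1 and selenop2 higher and gpx1a lower, where 2.98% of all 6682 genes were (1.99% higher and 0.988% lower). Of the 3, selenop2 had a DMSO level of 5.52, below the level filter of 7.02, which it passed only with benzene and the mix. With toluene 1 of 10, nqo1, was at least 2-fold higher and 0 were lower, against 2.75% of all genes in either direction, 2.17% higher and 0.584% lower. With formaldehyde 0 of 10 were 2-fold apart, against 3.83% of all genes, 1.39% higher and 2.44% lower; selenop2 at 0.96 and prdx1 at 0.89 were the closest on the higher side and prdx5 at -0.88 on the lower side. The median difference of the 10 genes was 0.51 with benzene, 0.46 with toluene and -0.12 with formaldehyde, beside -0.01, 0.00 and -0.02 for all genes. With formaldehyde the count is 1 when the probe sets of a gene are averaged, which brings in prdx1. It is 3 when the reference is the mean of the 2 solvent arrays, where nqo1, prdx5 and selenop are lower. With the same kind of reference, the benzene count stays at 3 with prdx5 in place of nqo1, and the toluene count is 2, gpx1a higher and selenop2 lower. That toluene reference includes the benzene array, and against DMSO toluene was at 0.21 for gpx1a and 0.42 for selenop2. No shares of all genes are given for averaged probe sets or these references, so the percentages above do not apply to these counts.

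Markers of several tissues also differed on the single-compound arrays. With benzene, 12 of 15 exocrine pancreas markers and 13 of 23 skin markers were at least 2-fold higher than with DMSO, and the medians of these lists were 1.31 and 1.14. With toluene, 6 of 15 exocrine pancreas, 12 of 23 skin and 7 of 13 intestine markers were higher, with medians of 0.92, 1.04 and 1.14. No marker of the 8 lists was 2-fold lower with either solvent. With formaldehyde the same lists lay on the lower side: 15 of 15 exocrine pancreas markers, 7 of 13 intestine markers, 10 of 23 skin markers and 5 of 17 neutrophil and macrophage markers fell short of DMSO by 2-fold or more. The medians of these 4 lists were -3.11, -1.05, -0.97 and -0.68, and the gene cpa5 is on both the first and the last. In the other direction, 6 of 18 skeletal muscle markers and 4 of 18 liver markers were higher with formaldehyde, with medians of 0.81 and 0.72. The liver list also held 1 marker that was 2-fold lower with formaldehyde, the vitellogenin gene vtg2 at -1.32. The summed linear level of the pancreas list was 49801 on the DMSO array, 117533 on the benzene array, 91300 on the toluene array and 5380 on the formaldehyde array, and that of the skin list was 24638, 39649, 38339 and 17803. The part of tissue makeup in the single-compound differences of the 10 genes was not tested.

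**Figure D2:**
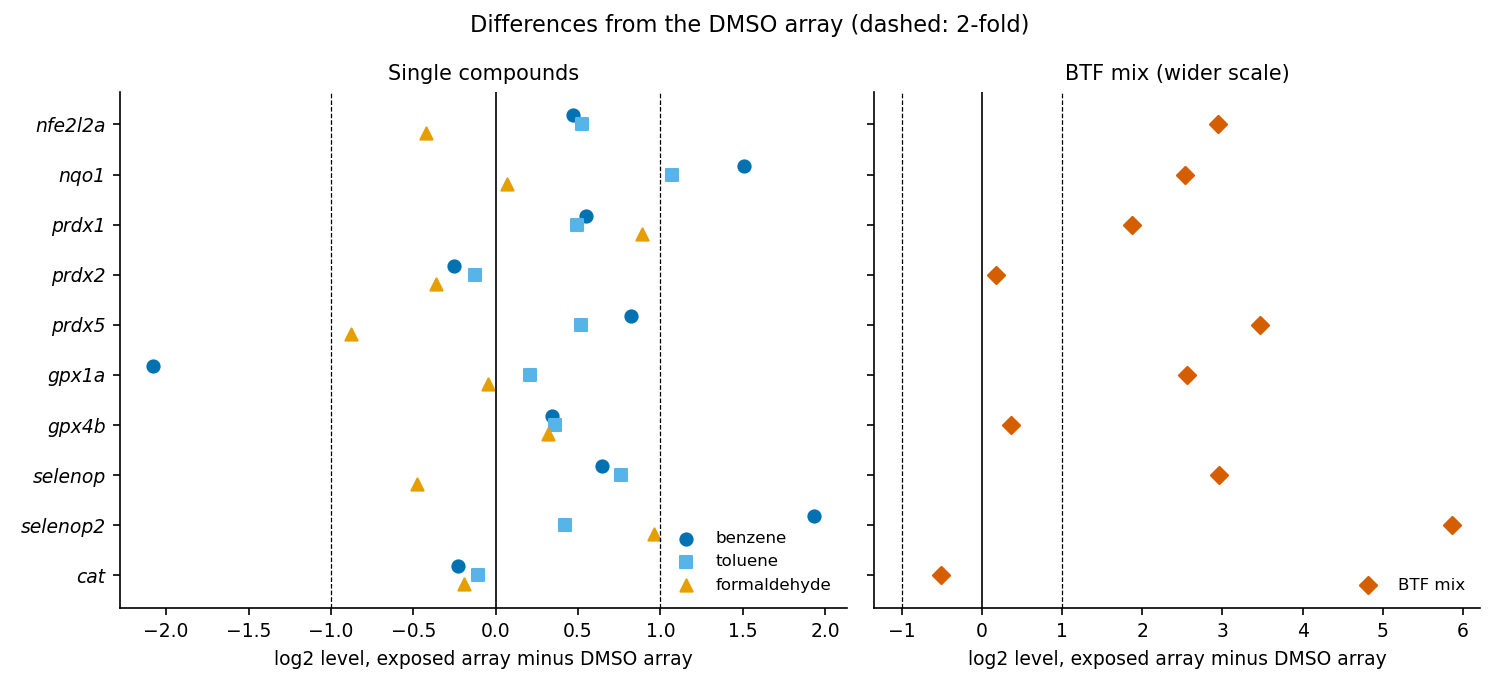
The log2 level of each exposed array minus the DMSO array (horizontal axis) for the 10 genes (vertical axis), with the 3 single compounds on the left and the BTF mix on a wider scale on the right; dashed lines mark 2-fold. The largest differences with a single compound are those of benzene, gpx1a at -2.08 and selenop2 at 1.93.

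Benzene and toluene differ by a methyl group. As the doses are not given, their values can only stand side by side. They also share the DMSO array, so their differences from it are not independent. For gpx1a the differences were -2.08 with benzene and 0.21 with toluene, and for selenop2 they were 1.93 and 0.42. These 2 genes had the largest gaps between the solvents, 2.29 and 1.51. For each of the other genes the differences had the same sign, and the gap lay between 0.02, for gpx4b, and 0.44, for nqo1.

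With the BTF mix, 7 of the 10 genes were at least 2-fold higher than with DMSO and 0 were lower. Of all 6682 genes 59.0% were at least 2-fold apart there, 23.2% higher and 35.8% lower. The 7 were selenop2 at 5.87, prdx5 at 3.46, selenop at 2.96, nfe2l2a at 2.94, gpx1a at 2.55, nqo1 at 2.53 and prdx1 at 1.88. Of these, 6 also lay at least 2-fold above the highest of the other 4 arrays, where 50.9% of all genes lay 2-fold outside those arrays with 20.3% above and 30.6% below them; prdx1 lay 0.99 above. The remaining 3 genes, gpx4b at 0.37, prdx2 at 0.17 and cat at -0.51, stayed within 2-fold of DMSO. The DMSO level of selenop2 was below the level filter. The median difference of the 10 genes was 2.54, beside -0.36 for all genes. Centring each array on its median over the probe sets past the level filter, in place of the deposited scale, raises all mix differences by 0.38, and cat stays below DMSO under that scaling, at -0.13.

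Most markers of tissues other than the ovary were higher on the mix array together with these genes. In bulk RNA, more cells of a type and more RNA per cell cannot be told apart. Of the marker genes measured, 16 of 18 for liver, 15 of 15 for exocrine pancreas, 12 of 13 for intestine, 21 of 23 for skin, 17 of 18 for skeletal muscle, 7 of 10 for erythrocytes and 16 of 17 for neutrophils and macrophages were at least 2-fold higher with the mix than with DMSO. The medians of these 7 lists lay between 2.19, for skeletal muscle, and 3.48, for skin. The summed linear level of the skin list ran from 17803 to 39649 on the other 4 arrays and was 110304 on the mix array, and that of the liver list ran from 47824 to 55952 and was 118118. Single markers were higher by 1.08 for the liver gene fabp10a, 1.53 for the trypsin gene prss1, 2.1 for the keratin gene krt5 and 1.39 for the muscle creatine kinase gene ckma. The vitellogenin gene vtg2, whose yolk protein the liver makes in egg-laying females, went the other way: its level was 14.08 with DMSO and 5.96 with the mix, a difference of -8.12, and it was the 1 liver marker that was 2-fold lower. A lower marker was also found in 3 other lists, 1 in each. It was epcam at -1.01 for skin, fech at -1.11 for erythrocytes and ctss2.1 at -3.16 for neutrophils and macrophages. The mix differences of nfe2l2a, nqo1, prdx5, gpx1a and selenop lay inside the span of the list medians, selenop2 lay above it, and prdx1, gpx4b, prdx2 and cat lay below it. The part of tissue makeup in these differences was not tested.

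Some of these genes had profiles close to those of marker lists. Each profile was centred on its own mean over the 5 arrays, and the root mean square difference between a gene and the median profile of a list was taken. For nfe2l2a the closest list was that of neutrophils and macrophages, at 0.13, and for selenop the same list, at 0.18. The next lists followed at 0.26 (erythrocyte) and 0.37 (intestine) for nfe2l2a, and at 0.27 (intestine) and 0.29 (erythrocyte) for selenop. How many of all genes lie this close to a list is not given, so the closeness has no background to be read against. For prdx5 the neutrophil and macrophage list, at 0.30, and the skin list, at 0.31, lay about equally close. For prdx1 it was the skeletal muscle list, at 0.19. Without the mix array, the distances were 0.12 for nfe2l2a, 0.21 for selenop and 0.12 for prdx1 to the same lists. Genes that varied little were as close to a list on those arrays. Both cat and gpx4b lay at 0.13 from the oocyte list, and prdx2 at 0.18 from the erythrocyte list. For nqo1 the smallest distance without the mix was 0.45. No list came close to selenop2, whose smallest distance was 1.15, or to gpx1a, whose smallest was 0.95. Without the mix array the smallest distance of selenop2 was 0.66, to the erythrocyte list, and that of gpx1a was 0.90, to the skeletal muscle list. All these profiles share the same 5 arrays, and the part of tissue makeup in them was not tested.

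**Figure D3:**
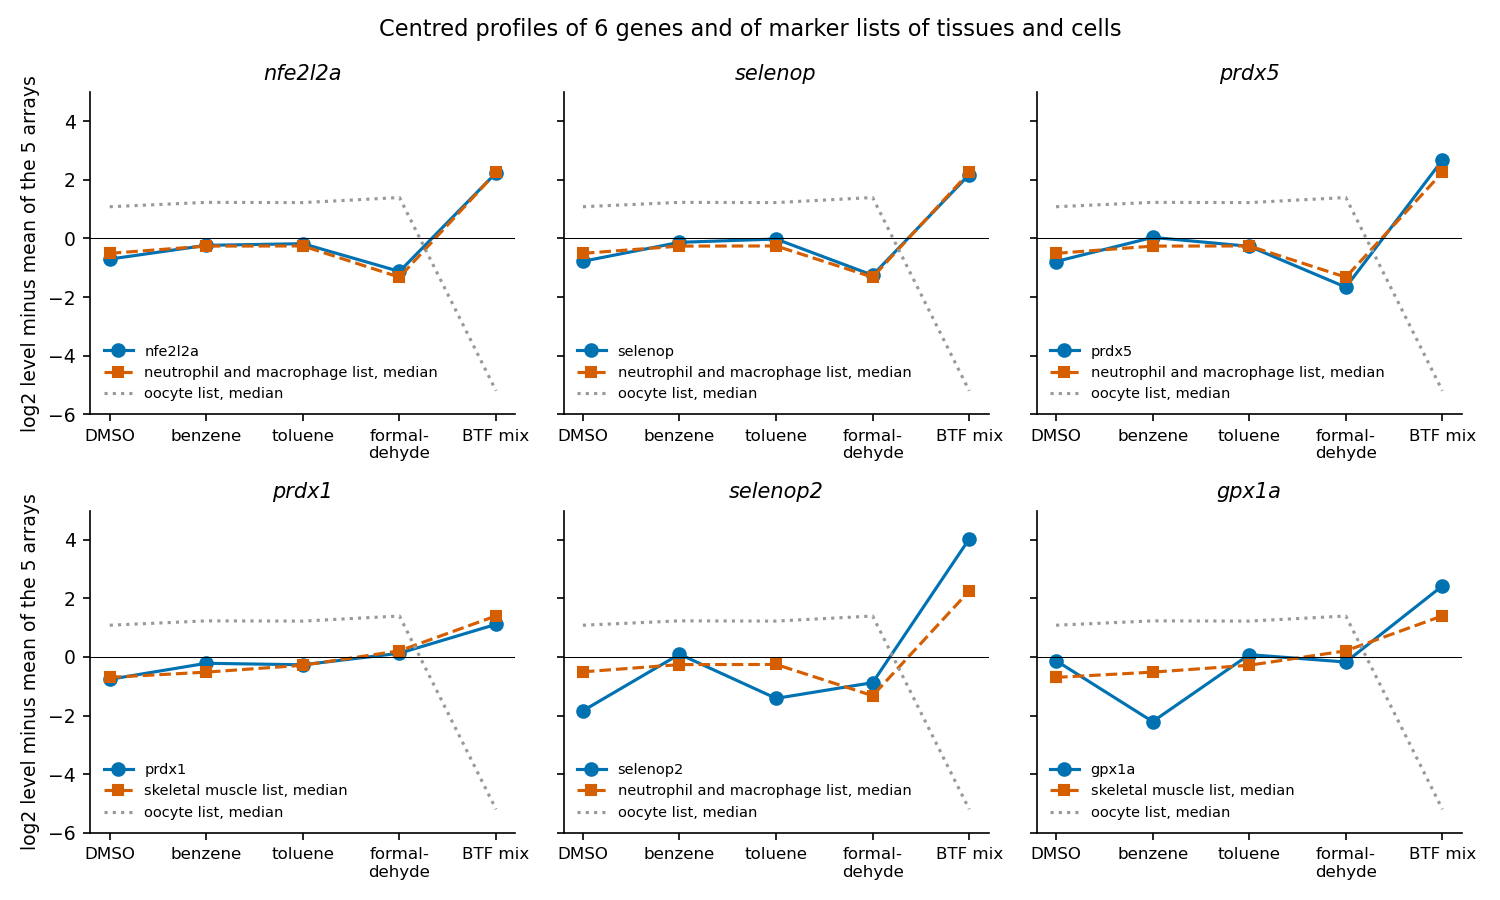
The log2 level minus the mean of the 5 arrays (vertical axis) on each array (horizontal axis) for 6 genes (solid, circles), the marker list with the closest median profile (dashed, squares) and the oocyte list (dotted). The nfe2l2a, selenop and prdx1 lines run close to their lists, and gpx1a leaves its list with benzene.

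The single genes with the most similar profiles were on the closest marker list for prdx1, and not for nfe2l2a, selenop or prdx5. Among 4397 genes that span at least 2-fold over the 5 arrays, the distance to the nearest other gene had a median of 0.041 and a 90th percentile of 0.123. These distances cover all symbols. The neighbours named here leave out symbols that begin with zgc:, si:, LOC, wu:, im:, sb:, zmp:, cb or fb, so a gene left out may lie closer. The genes nearest to selenop were tp63, a transcription factor of basal epidermis and a member of the skin list, at 0.031, itm2bb at 0.050 and ahnak at 0.057. The skin list as a whole lay farther from selenop, at 0.50. Nearest to nfe2l2a were caspa at 0.075, the aryl hydrocarbon receptor gene ahr2 at 0.083 and the collagen gene col5a2a at 0.084. Nearest to prdx5 were gpa33a at 0.052, the claudin gene cldn3c at 0.064 and the calponin gene cnn2 at 0.071. Nearest to prdx1 were 2 genes of the skeletal muscle list, myoz1b at 0.087 and tnnt3b at 0.093, with pdcd6 between them at 0.091.

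Among the symbols kept, nqo1, selenop2 and gpx1a had no neighbour within the 90th percentile of those distances. The closest to nqo1 were the growth hormone gene gh1 at 0.145, the carbonic anhydrase gene ca2 at 0.186 and marcksl1b at 0.215. For selenop2 they were loxa at 0.546, agt at 0.580 and lye at 0.583, and for gpx1a they were the uncoupling protein gene ucp3 at 0.600, ulk1b at 0.603 and psmb12 at 0.617.

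Other genes of the Nrf2 pathway lay within 2-fold of DMSO with every single compound, as did most genes on the array. Of 8 measured regulators of Nrf2 and 16 further genes listed as Nrf2 targets, 0 were 2-fold apart with benzene, toluene or formaldehyde, where 2.98%, 2.75% and 3.83% of all genes were. For lists of this size a count of 0 is near those shares. The target list had medians of 0.04, 0.02 and -0.12 in that order. The glutathione synthesis genes lay near DMSO, with gclc at -0.11, -0.04 and -0.14 and gclm at 0.27, 0.12 and 0.11 in the same order. The largest difference was that of the glutathione reductase gene gsr with formaldehyde, at -0.98, where the level was 6.96 against 7.93 with DMSO. With the mix 3 of the 8 regulators were at least 2-fold higher and 0 lower, beside 23.2% and 35.8% of all genes. The 3 were the Keap1 receptor sqstm1 at 2.11, the small Maf gene maff at 1.80 and keap1a itself at 1.56. The median of the 8 was -0.27, beside -0.36 for all genes. Of the 16 targets 4 were higher with the mix, a share near the 23.2% of all genes, and 0 were lower, where 35.8% of all genes were. The 4 were the thioredoxin gene txnb at 2.79, gsr at 1.80, the glutathione transferase gene gstp1.2 at 1.21, and ftr82 at 2.5, a TRIM family gene that has no established place among Nrf2 targets.

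In the peroxiredoxin and thioredoxin list of 16 further genes, 1 was at least 2-fold higher with a single compound. This was txnipa, encoding a protein that binds and blocks thioredoxin, which had levels of 7.87 with DMSO, 8.63 with benzene, 8.99 with toluene, 7.94 with formaldehyde and 11.97 with the mix. The 2 solvents were above DMSO and formaldehyde, as for nqo1. With the mix 5 of the 16 genes were at least 2-fold higher and 4 lower, not far from the 23.2% and 35.8% of all genes. The gene prdx4, the peroxiredoxin of the endoplasmic reticulum, was among the lower ones at -1.25, while the mitochondrial prdx3 lay at 0.32.

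Among other glutathione peroxidases, gpx8 differed with toluene. Its product is an enzyme of the endoplasmic reticulum without selenocysteine. The level was 7.28 with DMSO, 7.14 with benzene, 8.62 with toluene, 8.28 with formaldehyde and 6.32 with the mix. Toluene was 1.34 above DMSO, formaldehyde was just under 2-fold above it, and the mix was below.

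Of 16 other measured selenoprotein genes, the small redox protein genes selenow2a and selenow2b were higher with all 3 compounds. The level of selenow2b was 7.46 with DMSO, 8.53 with benzene, 8.70 with toluene, 8.47 with formaldehyde and 11.90 with the mix, and that of selenow2a was 7.59, 8.61, 8.53, 8.73 and 8.58 in the same order. For both the DMSO array was the lowest of all 5. For selenow2a the 4 exposed arrays lay close together, whereas selenow2b lay 3.21 above all others with the mix. The number of selenoprotein genes at least 2-fold higher was 2 with benzene, 1 with toluene and 2 with formaldehyde, with 0 lower each time, beside 1.99%, 2.17% and 1.39% of all genes higher. With the mix 4 of the 16 were higher, near the 23.2% of all genes, including selenow1 at 2.01 and the deiodinase gene dio1 at 1.49. On the lower side were 2, selenoh at -1.82 and selenom at -1.58, where 35.8% of all genes were lower. The list median with the mix was 0.61, beside -0.36 for all genes.

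Of 7 measured genes of the machinery that makes and inserts selenocysteine, 0 were 2-fold apart with a single compound. With the mix 3 were lower and 0 higher, where 35.8% of all genes were lower and 23.2% higher, so both counts are near those shares. The lower ones were trnau1apa, whose product binds the selenocysteine tRNA, at -2.58, sephs1 of the selenophosphate synthetase family at -1.84, and sepsecs, the enzyme that completes selenocysteine on its tRNA, at -1.63. On the same array the oocyte markers were lower by the amounts given above, and their part in these differences was not tested.

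**Figure D4:**
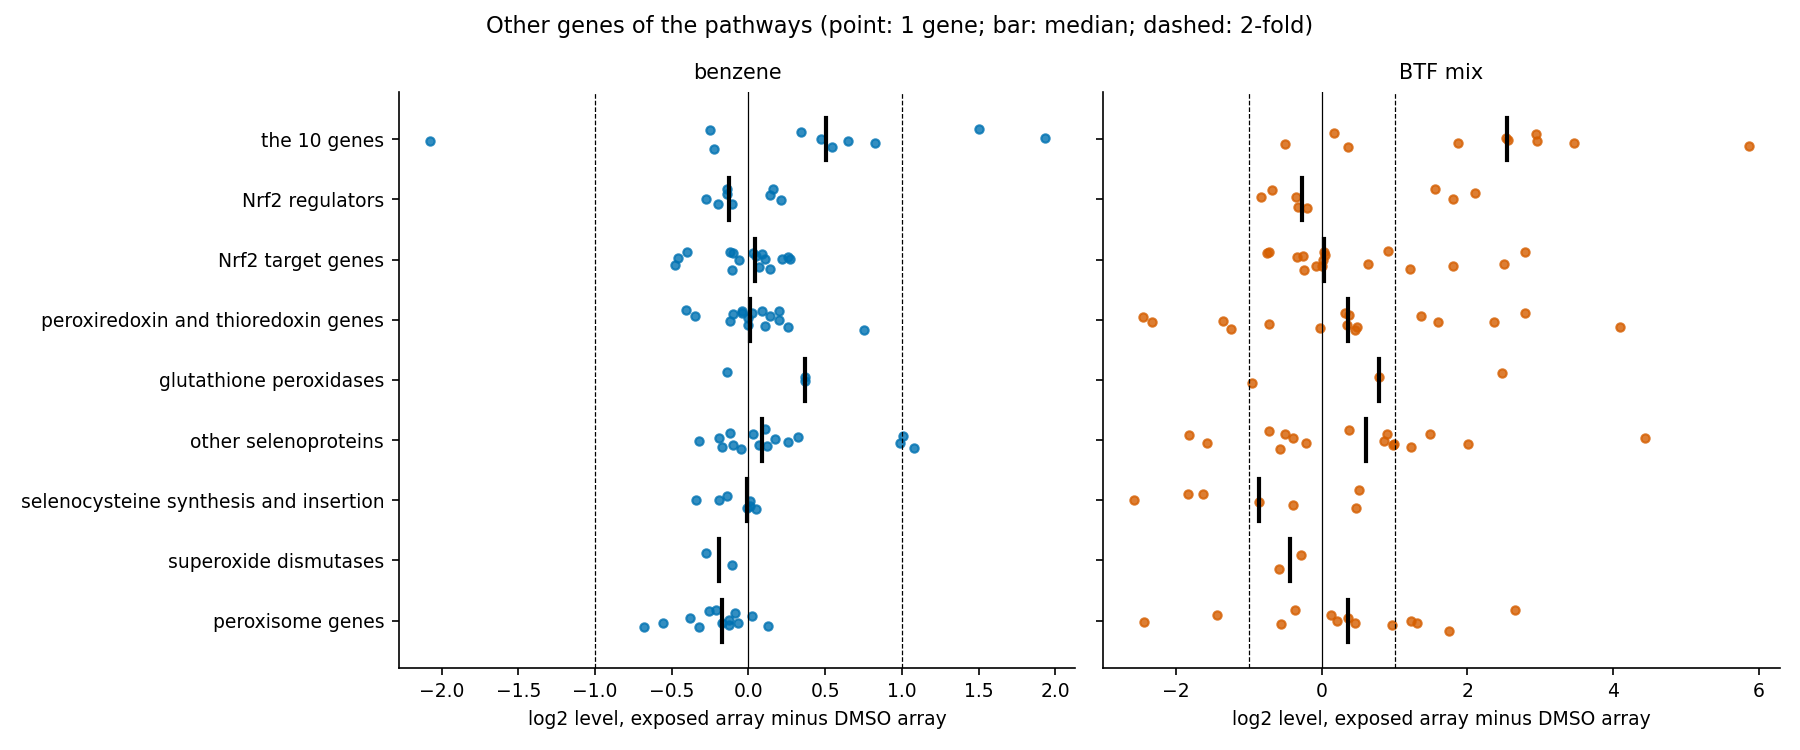
The log2 level of the benzene array (left) and of the BTF mix array (right) minus the DMSO array (horizontal axes) for the 10 genes and for 8 lists of other genes (vertical axis); a point is 1 gene, a black bar the median, and dashed lines mark 2-fold. With benzene, only the 10 genes and the selenoprotein list hold points beyond 2-fold.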

How the data were processed

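The table deposited by the authors gives a log2 value for each probe set on each array. RMA, MAS5 and Affymetrix Expression Console 1.1 are named in the submitters' processing notes, with no role given. The values, from 3.15 to 15.04, have the range of RMA output, from which the log2 base was taken. The quartiles were 5.71 and 8.46 on the mix array and 5.37 and 8.86 on the DMSO array, so differences with the mix depend on the scaling.

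From these values, 115 control probe sets were left out. Of 15502 others, 10795 had exactly 1 gene symbol, 135 several and 4572 none. Symbols were updated by Entrez identifier with NCBI RefSeq's gene table (GRCz12tu), where 10711 matched. Its coordinates were not used. The level filter left 9716 probe sets. Samples were grouped by their titles. Differences and counts at 2-fold were computed with Python 3.11.15, pandas 2.3.3 and numpy 2.4.6, and the counting step was tested on simulated data.

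The genes, the gene lists and the rule for named genes were chosen with earlier results of these data known, so their choice is no independent support. Named are all 10 genes, up to 2 genes of a list and exposure with the largest difference of at least 1, the 3 nearest in profile, and the markers zar1, fabp10a, prss1, krt5 and ckma; not all genes of the marker lists so chosen are printed. Further members of the lists named for comparison (gclc, gclm, gsr, gstp1.2, keap1a, gpx1b, prdx3, prdx4, dio1, selenoh, selenom, sepsecs, sod1, sod2, epcam, fech and ctss2.1) were chosen after their values were seen. Alternatives were other normalizations, level filters, probe set rules, reference arrays and a 1.5-fold limit.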

Additional observations from a re-analysis of the deposited data

How the results depend on the processing

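The 9 counts and medians of the 10 genes were recomputed under up to 8 alternatives. Of 64 such values, 55 stayed within 1.5 times for a count or within the median scatter of probe sets for a median, and 9 did not. With the mean of the other 2 single-compound arrays as reference, the median was 0.21 with benzene and 0.23 with toluene, and the counts were 2 with toluene (gpx1a at 1.27 and selenop2 at -1.02) and 3 with formaldehyde. Each solvent's reference there includes the other solvent. Against DMSO, gpx1a was at -2.08 and selenop2 at 1.93 with benzene. At 1.5-fold the counts were 5 with benzene, 2 with toluene and 3 with formaldehyde. No shares of all genes are given at 1.5-fold or for those references, so the 2-fold shares against DMSO do not apply to these counts. For formaldehyde the count of 0 became 1 when probe sets of a gene were averaged and 1 (selenop2) with arrays centred on their medians over the probe sets past the level filter. Averaging took prdx1 from 0.89 to 1.04 with formaldehyde, and centring took selenop2 from 0.96 to 1.02. Apart from these and the lower limit of 1.5-fold, the causes of the changes were not tested. Single genes kept within that scatter under 246 of 270 recomputations, and the 24 others all used another reference array. Many of these values could not move. Under both other level filters every gene kept its representative probe set, so those recomputations, also among the 64, returned the same values. Averaging probe sets could change prdx1 alone among the single genes. Quantile normalization raised the median of all genes by 0.26 with the mix. No paired analysis was possible because each condition has 1 array. No array could be left out of a condition for the same reason.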

Other observations

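Peroxisomes house catalase, and other peroxisome genes can be set beside cat. Of 13 measured, 0 were 2-fold apart from DMSO with a single compound, and the medians were -0.17 with benzene, -0.09 with toluene and -0.12 with formaldehyde. With the mix 4 were at least 2-fold higher and 2 lower, beside 23.2% and 35.8% of all genes, with hao1, a peroxisomal oxidase of the liver, at 2.66 and agps, an enzyme of ether lipid synthesis, at -2.44. The superoxide dismutase genes, whose products feed hydrogen peroxide to the enzymes above, varied little, sod1 between 11.46 and 12.03 and sod2 between 10.40 and 10.79 over the 5 arrays.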
